A study of Mus musculus with 6 samples.

Results

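The 9 genes described here encode a growth factor, Igf1, its receptor Igf1r, the insulin receptor Insr, and 6 secreted binding proteins, Igfbp2 to Igfbp7. They were taken by gene symbol from transcript tables of 6 mouse RNA libraries, and all 9 symbols were found, with 35 annotated transcripts, among 53135 genes and unnamed loci. The libraries hold total RNA of lines of Sertoli cells, which nurse the germ cells inside the testis tubules. Lines with a green phenotype are labelled positive for Y-GFP expression (GFP-positive, replicates 2, 4 and 7), and non-green lines negative (GFP-negative, replicates 9, 11 and M). Strain, age, the promoter of the reporter, and whether a line is 1 clone are not given in the sources used here. Nor is it given whether the replicates are separate cultures or animals. The spread that p-values here rest on is that between libraries and may be technical.

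Insulin-like growth factors (IGFs) signal through IGF1R and the closely related insulin receptor, both tyrosine kinases that act through adaptor proteins on the PI3K-AKT and RAS-MAPK cascades. The binding proteins hold IGFs outside the cell with high affinity, and proteases release them again. IGFBP7 is a more distant relative that binds IGFs weakly. In the testis, insulin-family signalling through these receptors is known to be needed for testis formation and for the number of Sertoli cells.

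Levels are FPKM, fragments for each kilobase of a transcript, set against the depth of the library and summed over the annotated transcripts of a gene and scaled between libraries by the median of ratios. The libraries held 11.2 to 11.8 Gb of aligned bases in the GFP-positive and 8.25 to 10.02 Gb in the GFP-negative group. Depth thus did not overlap between the groups, and its part in the results below was not tested. The FPKM of a library summed to 668557 to 747404 in the GFP-positive and 292449 to 470070 in the GFP-negative group. Of 23 listed Sertoli markers in the tables, 22 were above the filter of 0.5 mean scaled FPKM. Clu, Cldn11, Vim and Inha stood at 102 FPKM or more in every library except Inha in GFP-negative 11 (59.2). Summed Sertoli markers ranged from 2506 to 3946 FPKM in GFP-positive and from 1277 to 4126 in GFP-negative libraries, lowest in GFP-negative 11. By the test described below, 5 of the 22 were lower in GFP-positive libraries, among them Sox9 (log2 difference -1.91), Gata4 (-1.81) and Vim (-1.11). Dmrt1 (1.10) was the 1 that was higher, where 11.4% of all genes tested were lower and 14.5% higher. Summed germ cell markers ranged from 33.9 to 150 FPKM in GFP-positive and from 1.34 to 2.89 in GFP-negative libraries, with the protamine genes Prm1 and Prm2 listed at 0 throughout. Of the 8 germ cell markers tested 6 were higher in GFP-positive libraries, and Kit and Stra8 did not pass. Summed fibroblast markers ranged from 39.0 to 57.2 and from 48.2 to 1158 FPKM, highest in GFP-negative 11. Summed peritubular myoid markers were 131, 1862 and 1065 FPKM in GFP-positive 2, 4 and 7, mostly from Tagln and Acta2. In the GFP-negative group they ranged from 331 to 878. By the same test 2 of the 6 were lower in GFP-positive libraries, Myh11 (-2.50) and Actg2 (-2.19), and none higher. Leydig markers ranged from 35.1 to 86.5 and from 71.4 to 87.3. Endothelial markers ranged from 3.52 to 6.34 and from 7.69 to 12.5 FPKM, with 4 of 5 under the filter. Summed macrophage markers ranged from 1.76 to 2.31 and from 3.78 to 8.86 FPKM, with 4 of 6 under the filter. Lyz2 averaged 0.726 FPKM in the GFP-positive and 4.31 in the GFP-negative group, whereas Cd68 averaged 1.12 and 0.874. The 4 proliferation markers summed to 97.4 to 181 and to 22.1 to 48.9 FPKM, and 3 of them were higher in GFP-positive libraries by the same test. Mki67 did not pass, at means of 5.12 and 4.71 FPKM, and was highest in GFP-negative M (7.85). In bulk RNA, fewer cells of a type and less RNA per cell cannot be told apart. The part of these cell types and of proliferation in the results below was not tested.

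Transcripts of 4 binding proteins had the highest mean levels of the set, and the growth factor itself the lowest. Averaged over the 6 libraries, Igfbp7 stood at 158 scaled FPKM, above the next member, Igfbp3 (41.9), in 6 of 6 libraries and with no overlap of their ranges. Igfbp2 (33.7) and Igfbp6 (27.3) followed, and their ranges overlapped with each other and with Igfbp3. Lower in mean were Igf1r (8.94), Igfbp4 (7.34), Insr (4.94) and Igfbp5 (3.03), also with overlapping ranges. No gap set them apart from the genes above. Igfbp6 was above Igf1r in 5 of 6 libraries, but not in GFP-negative 9 (8.14 against 9.30). In GFP-negative 11, Igfbp2 (9.50) lay below Igf1r (15.7) and Igfbp4 (12.8). Igf1 was lowest in mean at 1.09, although Igfbp5 lay below it in GFP-positive 4 and 7. Over the 3 GFP-positive libraries Igfbp2 ranked second and stood above Igfbp6 and Igfbp3 in mean, whereas over the 3 GFP-negative libraries Igfbp3 ranked second and Igfbp2 stood below Igfbp6, an order of means that rests on GFP-negative 11, since Igfbp2 was the higher of both in 9 and M. With isoforms that carry no gene name added to their genes, Igfbp3 ranked second in the GFP-positive group too (54.8 against 52.1 for Igfbp2, higher in 2 of 3 libraries), and Igf1r rose to the third place in the GFP-negative group (22.3). Igfbp1, the neighbour of Igfbp3, was listed at 0 in 5 libraries and at 0.0732 in GFP-positive 4.

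**Figure D1:**
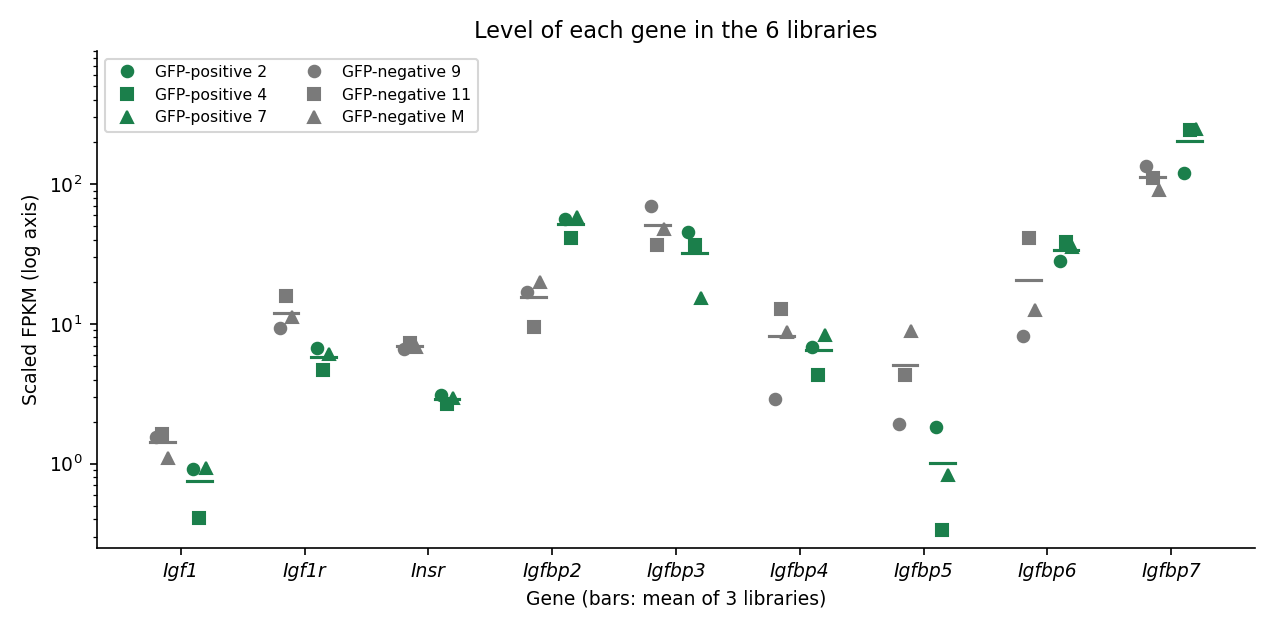
Scaled FPKM (log axis) of each of the 9 genes in each library, green for GFP-positive and grey for GFP-negative, with bars at the mean of 3 libraries. The groups do not overlap for Igf1, Igf1r, Insr, Igfbp2 and Igfbp5, and Igfbp2 is the member of these 5 that is higher in GFP-positive libraries.

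Between the groups, 4 of the 9 members passed limma's test at an adjusted p of 0.05, 1 higher (Igfbp2) and 3 lower (Igf1r, Insr and Igfbp5) in the GFP-positive libraries. Among all 15117 genes tested 25.9% passed, 14.5% higher and 11.4% lower, so that 1 of 9 higher lies near the background share. The members' median log2 difference was -0.64, against 0.02 over all genes tested. All 9 members passed the filter. Values of 5 of the 9 did not overlap between the groups, and the same held for 45.7% of all genes tested.

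The receptor of IGF1 was lower in the GFP-positive libraries. Igf1r (chromosome 7, 67602575 to 67883646, plus strand, mm39) stood at 6.72, 4.71 and 6.05 scaled FPKM in GFP-positive 2, 4 and 7, and at 9.30, 15.7 and 11.2 in GFP-negative 9, 11 and M. All 3 GFP-positive values lay below the lowest GFP-negative one. The mean fell from 12.1 ± 3.30 to 5.83 ± 1.02 (SD, n = 3), a log2 difference of -0.97 (SE 0.28, limma adjusted p = 0.0373). The call was lost without any library other than GFP-negative 9 (adjusted p from 0.0639 to 0.116). Of all genes 3.07% to 15.9% passed in the fits that lost it, and 37.1% without GFP-negative 9. The Igf1r difference lay between -1.14 and -0.81 in all 6 fits.

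Much of the RNA at this locus was assigned by the assembly to isoforms that carry no gene name. There were 3 such isoforms of Igf1r, each with 22 exons against 21 in the main annotated transcript, and the longest started at 67600458. They held 18.3%, 51.8% and 31.2% of the FPKM of the locus in GFP-positive 2, 4 and 7, and 40.8%, 44.6% and 51.0% in GFP-negative 9, 11 and M. With them added, Igf1r stood at 8.96 ± 0.805 and 22.3 ± 6.49 scaled FPKM, and the log2 difference was -1.23 (SE 0.27, limma adjusted p = 0.0150). The low value of GFP-positive 4 among annotated transcripts was thus not present in the sum, where the 3 GFP-positive libraries lay between 8.22 and 9.82.

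The insulin receptor gene gave the most even values of the set. Insr (chromosome 8, 3172061 to 3329617, minus strand) stood at 3.11, 2.68 and 2.94 scaled FPKM in GFP-positive 2, 4 and 7, and at 6.64, 7.35 and 6.89 in GFP-negative 9, 11 and M. The groups did not overlap, and the SD was smaller relative to the mean than for any other member in either group. The mean fell from 6.96 ± 0.361 to 2.91 ± 0.218, a log2 difference of -1.13 (SE 0.24, limma adjusted p = 0.0145). The call was lost without GFP-positive 7 (adjusted p = 0.0696) or GFP-negative M (0.0672), where 3.88% and 3.07% of all genes passed. The Insr difference was -1.11 and -1.17 in these fits. A single annotated transcript of 21 exons held 80.6% to 89.5% of its FPKM in every library.

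The ratio of both receptors does not depend on the scaling between libraries. The level of Igf1r was 2.16, 1.76 and 2.06 times that of Insr in GFP-positive 2, 4 and 7, and 1.40, 2.14 and 1.62 times in GFP-negative 9, 11 and M. The log2 ratio was 0.99 ± 0.16 and 0.76 ± 0.31 (SD, n = 3), a difference of 0.23 (SE 0.20) with an exact two-sided permutation p of 0.3, where 3 against 3 libraries cannot go below 0.1. With unnamed isoforms added the difference was -0.021 (SE 0.25, exact permutation p = 1).

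Igf1, which encodes the secreted growth factor (chromosome 10, 87694127 to 87772904, plus strand), was near the filter. It stood at 0.912, 0.407 and 0.935 scaled FPKM in GFP-positive 2, 4 and 7, and at 1.56, 1.62 and 1.09 in GFP-negative 9, 11 and M. Although the groups did not overlap, the log2 difference of -0.64 did not pass (SE 0.30, 95% interval -1.33 to 0.05, limma adjusted p = 0.141). Its main annotated transcript, with 4 exons, had a mean per-base coverage of 3.32 to 11.1, the lowest minimum of the set, and held 47.0% to 80.5% of the gene's FPKM. A transcript with 5 exons held 38.7%, 14.1% and 5.30% in GFP-positive 2, 4 and 7 and 29.9%, 8.25% and 8.42% in GFP-negative 9, 11 and M, highest in 1 library of each group. The opposite-strand gene Igf1os, which overlaps Igf1, did not exceed 0.0394 FPKM.

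Among binding proteins, Igfbp2 was higher and its neighbour Igfbp5 lower in the GFP-positive libraries. The pair lies tail to tail on chromosome 1 with 5457 bases between them, Igfbp2 from 72863662 to 72891633 on the plus strand and Igfbp5 from 72897091 to 72914043 on the minus strand. The 250 bases before the start of each, from RefSeq (GRCm38.p6, a different build from that of the tables), are shown because the 2 adjacent genes went opposite ways. Capitals mark the GC box GGGCGG and the TATA-like run TATTTAA, searched on both strands. The second was chosen after the Igfbp5 sequence was seen.
Igfbp2 (chr1:72824230-72824479, plus strand): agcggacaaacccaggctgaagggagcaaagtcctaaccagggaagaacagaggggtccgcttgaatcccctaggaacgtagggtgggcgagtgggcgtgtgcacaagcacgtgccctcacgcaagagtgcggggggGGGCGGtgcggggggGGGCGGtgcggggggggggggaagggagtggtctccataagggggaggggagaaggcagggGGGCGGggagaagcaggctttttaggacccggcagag
Igfbp5 (chr1:72874866-72875115, minus strand): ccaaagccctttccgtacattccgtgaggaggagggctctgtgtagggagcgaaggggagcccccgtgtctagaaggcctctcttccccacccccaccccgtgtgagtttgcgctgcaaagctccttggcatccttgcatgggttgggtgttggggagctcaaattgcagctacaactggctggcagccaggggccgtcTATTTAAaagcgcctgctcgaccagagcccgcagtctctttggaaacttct
The Igfbp2 window held 3 GC boxes and the Igfbp5 window none, a motif present in 32.7% of 32851 RefSeq windows of this length. The Igfbp5 window held 1 TATTTAA and the Igfbp2 window none, and this run is present in 4.18%. The TATA box TATAAA, present in 12.4%, was also searched and was in neither of the 2 windows. GC content was 67.2% and 58.8%, against a median of 52.4% over all windows. Of the 9 members, 8 had a window in the table. Among their windows at the start of the RefSeq gene, Igfbp7 held 4 GC boxes, Igf1r 2 and Igfbp6 none.

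Igfbp2, which binds both IGFs, stood at 56.6, 41.3 and 57.9 scaled FPKM in GFP-positive 2, 4 and 7, and at 17.0, 9.50 and 20.1 in GFP-negative 9, 11 and M. The lowest GFP-positive value was above the highest GFP-negative one. The mean rose from 15.5 ± 5.44 to 51.9 ± 9.21, a log2 difference of 1.76 (SE 0.33, limma adjusted p = 0.0109). It passed in 5 of the 6 fits that left out 1 library. It missed the threshold without GFP-positive 7 (adjusted p = 0.0549), where 3.88% of all genes passed. Scaled to an equal sum of FPKM, which put the median of all genes at -0.87, the difference was 0.73 (adjusted p = 0.131).

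Igfbp5, a binding protein that also attaches to extracellular matrix, stood at 1.84, 0.335 and 0.835 scaled FPKM in GFP-positive 2, 4 and 7, and at 1.93, 4.31 and 8.92 in GFP-negative 9, 11 and M. GFP-positive 2 and GFP-negative 9 were nearly equal, so the groups were separated by a narrow gap. The mean fell from 5.05 ± 3.55 to 1.00 ± 0.768, a log2 difference of -1.80 (SE 0.54, limma adjusted p = 0.0405). The call was lost without GFP-positive 4 or 7 or GFP-negative 11 or M (adjusted p from 0.0785 to 0.136). It was kept without GFP-positive 2 (0.0398) or GFP-negative 9 (0.0113). Of all genes 3.07% to 15.9% passed in the fits that lost it, and 15.2% and 37.1% in those that kept it.

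The other 4 binding protein genes did not pass. Igfbp7 (chromosome 5, 77497087 to 77555888, minus strand) stood at 120, 245 and 246 scaled FPKM in GFP-positive 2, 4 and 7, and at 134, 111 and 91.1 in GFP-negative 9, 11 and M. GFP-positive 2 lay within the GFP-negative range. It was also the lowest of its group in summed myoid, fibroblast, endothelial and proliferation markers, and the highest in Sertoli, germ cell and Leydig markers. The part of these markers in the Igfbp7 level was not tested. The log2 difference of Igfbp7 was 0.80 (SE 0.36, 95% interval -0.01 to 1.62, limma adjusted p = 0.122). Without GFP-positive 2 it was 1.17 (adjusted p = 0.0509). Scaled to an equal sum of FPKM it was -0.25, and after quantile normalization 0.06. The gene overlaps the opposite-strand polymerase gene Polr2b by 260 bases, and the annotated Polr2b transcript ranged from 10.9 to 30.8 FPKM. On the same opposite strand its span overlaps an unnamed transcript by 2019 bases (0 to 10.6 FPKM) and Gm34648 by 7085 (at most 0.103 FPKM). As the strand setting of the counting is not given, reads of the shared bases cannot be told apart.

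Igfbp6, which prefers IGF2, was even in one group and uneven in the other. It stood at 28.1, 38.4 and 35.6 scaled FPKM in GFP-positive 2, 4 and 7, and at 8.14, 41.0 and 12.5 in GFP-negative 9, 11 and M. GFP-negative 11 was the highest of all 6 libraries, and the log2 difference was 1.04 (SE 0.52, limma adjusted p = 0.161). Without GFP-negative 11 it was 1.66 (adjusted p = 0.0208). Igfbp4 had the same order among GFP-negative libraries, at 2.92, 12.8 and 8.78 scaled FPKM in 9, 11 and M. The summed fibroblast markers had this order too (48.2, 1158 and 285 FPKM), mostly from Col1a1 and Col1a2 (691 and 444 in GFP-negative 11). Dcn, on the same list, had the reverse order (5.57, 1.58 and 3.31), and the part of these markers was not tested. Igfbp4 stood at 6.89, 4.31 and 8.36 in GFP-positive 2, 4 and 7, with a log2 difference of -0.14 (SE 0.49, 95% interval -1.25 to 0.97, limma adjusted p = 0.846). The difference was 0.24 without GFP-negative 11 and 0.13 without GFP-positive 4.

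Igfbp3, the main carrier of IGFs in blood (chromosome 11, 7156086 to 7163923, minus strand), stood at 45.3, 36.6 and 15.3 scaled FPKM in GFP-positive 2, 4 and 7, and at 70.0, 36.5 and 47.6 in GFP-negative 9, 11 and M. The ranges overlapped, with a log2 difference of -0.74 (SE 0.43, limma adjusted p = 0.217). An unnamed isoform with 6 exons over the same span, against 5 in the main annotated transcript, held 41.6%, 40.9% and 37.9% of the FPKM of the locus in GFP-positive 2, 4 and 7. In GFP-negative 9, 11 and M it held 5.05%, 15.9% and 39.3%, so that GFP-negative M resembled the GFP-positive libraries in this share. With it added, Igfbp3 stood at 54.8 ± 27.2 and 65.0 ± 18.7 scaled FPKM, with a log2 difference of -0.35 (SE 0.44, limma adjusted p = 0.560).

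**Figure D2:**
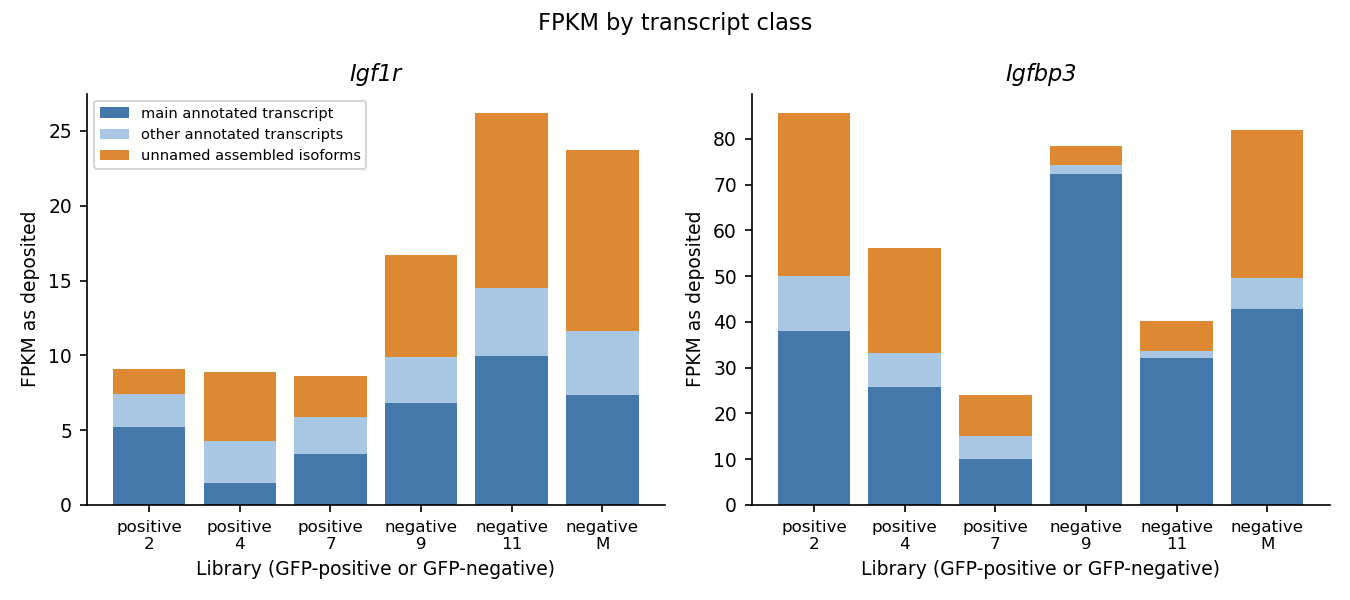
FPKM as deposited at Igf1r (left) and Igfbp3 (right) in each library, stacked by the main annotated transcript, other annotated transcripts and unnamed assembled isoforms. Unnamed isoforms hold 18.3% to 51.8% of Igf1r, and 5.05% of Igfbp3 in GFP-negative 9 against 37.9% to 41.6% in the GFP-positive libraries.

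Within a library, the make-up of the binding protein RNA is independent of scaling. The 6 Igfbp genes summed to 259, 366 and 364 scaled FPKM in GFP-positive 2, 4 and 7, and to 234, 216 and 189 in GFP-negative 9, 11 and M. Igfbp7 made up 46.5%, 66.9% and 67.6% of this sum in the GFP-positive and 57.2%, 51.7% and 48.2% in the GFP-negative libraries, the largest share in all 6. Igfbp2 made up 21.8%, 11.3% and 15.9% in GFP-positive 2, 4 and 7 and 7.27%, 4.41% and 10.6% in GFP-negative 9, 11 and M, with a narrow gap between GFP-positive 4 and GFP-negative M. Igfbp3 made up 17.5%, 10.01% and 4.205% against 29.9%, 17.0% and 25.2%, and its shares overlapped between the groups. Igfbp6 held 9.77% to 10.8% in the GFP-positive libraries and 3.48% to 19.0% in the GFP-negative ones.

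**Figure D3:**
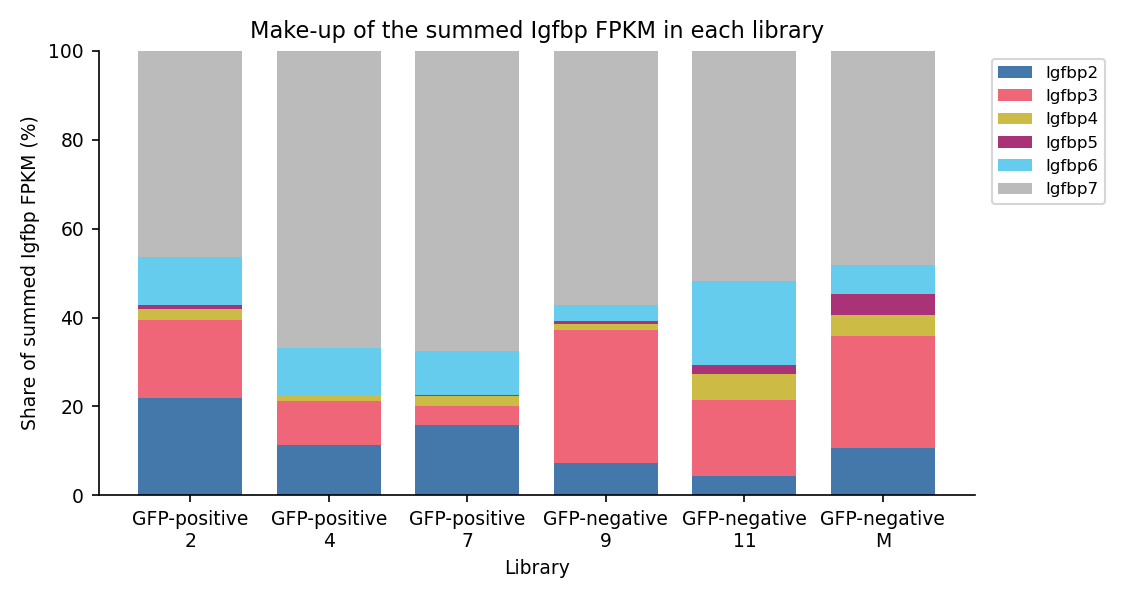
Share of each Igfbp gene (%) in the summed Igfbp FPKM of each library. Igfbp7 is the largest part in all 6 libraries, and the Igfbp2 part is 11.3% to 21.8% in GFP-positive and 4.41% to 10.6% in GFP-negative libraries.

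Short and long members differed in direction. The 3 members whose longest annotated transcript is up to 1500 nt (Igfbp2, Igfbp6 and Igfbp7) had positive log2 differences, and the 4 over 5000 nt (Igf1, Igf1r, Insr and Igfbp5) negative ones. Over all genes tested the median log2 difference was 0.78 for 3295 genes up to 1500 nt, 0.06 for 8404 between these limits, and -0.53 for 3418 over 5000 nt. In the shortest class 35.8% of genes rose and 3.95% fell, and in the longest 2.02% rose and 22.7% fell. With a length trend removed from each library, Igfbp2 passed at 1.31 (limma adjusted p = 0.0355), where 15.1% of all genes passed. Under that correction Igf1r (-0.33, adjusted p = 0.410), Insr (-0.53, adjusted p = 0.142) and Igfbp5 (-1.34, adjusted p = 0.107) did not pass.

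**Figure D4:**
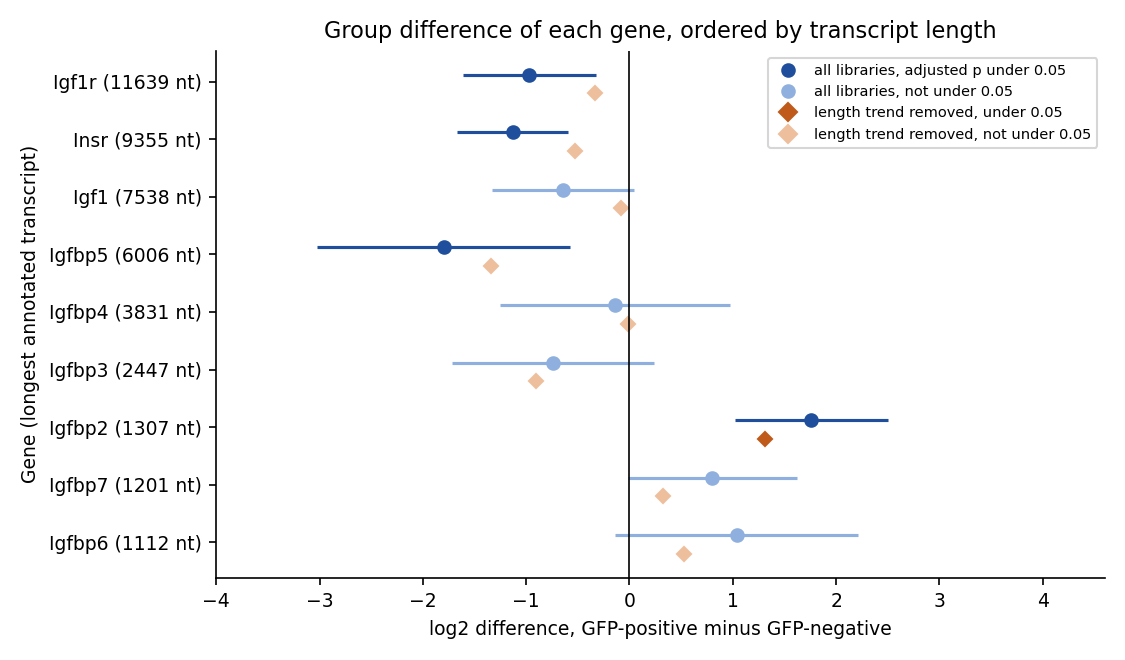
Log2 difference (GFP-positive minus GFP-negative) of each gene with its 95% interval (circles), and the same with a length trend removed (diamonds), ordered by the length of the longest annotated transcript. The 4 longest lie below 0 and the 3 shortest above, and Igfbp2 is the member in the dark shade for both symbols.

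By likeness of log2 level over the 6 libraries (Pearson r among 11662 named genes, with no test), Insr was most like Cpt1a (r = 0.999), a gene of fatty acid oxidation, and Cpsf2 (0.998). High values were also found for Igf1r with Zfp365 (0.995), and Igfbp2 was most like Smad6 (0.995) and Dnajc8 (0.993), and Igfbp5 like Zfp839 (0.9996) and Ubxn11 (0.9992). The best r was 0.992 for Igf1 (Usp14), 0.975 for Igfbp3 (Top2b), 0.987 for Igfbp4 (Txn1), 0.996 for Igfbp6 (Aimp2) and 0.995 for Igfbp7 (Sdhb). All of these share the same 6 libraries in 2 groups.

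Other genes of the pathway were mostly lower where they passed. Of 74 listed genes 66 were tested, and 19 fell and 2 rose in the GFP-positive libraries, with a median log2 difference of -0.65. Over all genes tested 11.4% fell and 14.5% rose, and a count such as 1 of 9 or 2 of 12 lies near these shares. Of the ligand genes Igf2, Ins1 and Ins2, only Igf2 was above the filter. It was uneven, at 1.03, 0.585 and 0.00882 scaled FPKM in GFP-positive 2, 4 and 7 and at 0.000222, 6.99 and 0.804 in GFP-negative 9, 11 and M (limma adjusted p = 0.482). Both tested receptor genes fell: Igf2r, which clears IGF2 from the cell surface, from 27.3 ± 3.78 to 11.9 ± 2.17 (log2 difference -1.17, limma adjusted p = 0.0157), and the endocytic receptor Lrp1 (-2.58).

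Of 12 tested protease and inhibitor genes 2 fell, the matrix metalloproteinases Mmp2 (-2.09) and Mmp14 (-1.09). Pappa, the IGFBP4 protease gene, stood at 2.02, 3.09 and 2.78 scaled FPKM against 8.44, 3.32 and 4.51 and did not pass (-0.84, limma adjusted p = 0.106; named after its values were seen). Among related binding proteins, Ccn3 rose from 0.873 ± 0.0291 to 2.31 ± 0.540 scaled FPKM (1.02, limma adjusted p = 0.0285).

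Of 12 tested adaptor and feedback genes 6 fell and none rose, led by the phosphatase gene Ptpn11 (-1.62), Grb2 (-1.33) and Gab1 (-1.26). The insulin receptor substrate genes Irs1 (-0.96) and Irs2 (-0.86), which also fell, were named after their values were seen. In the PI3K-AKT-mTOR cascade 5 of 19 fell and 1 rose. Rptor (-1.42) and Mtor (-1.51), subunits of mTOR complex 1, and Pik3r1 (-1.34), a PI3K regulatory subunit, fell, while Mlst8, another mTOR subunit gene, rose from 5.33 ± 0.982 to 12.04 ± 3.22 scaled FPKM (1.09, limma adjusted p = 0.0277; named after its value was seen).

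Of 5 genes of FOXO factors and GSK3 kinases, which AKT inhibits, 3 fell: Gsk3b (-1.93), Foxo3 (-1.22) and Foxo1 (-0.95). In the RAS-MAPK cascade 1 of 9 fell, the kinase gene Map2k1 (-1.67). None of the 3 genes of IGF2 mRNA-binding proteins passed, with Igf2bp3 at 4.27 ± 0.205 and 5.52 ± 0.279 scaled FPKM (-0.33, limma adjusted p = 0.301). With the length trend removed 6 pathway genes fell and 3 rose (15.1% of all genes called). Leaving out GFP-negative M gave 3 that fell and 0 that rose (3.07% of all genes called), and leaving out GFP-positive 7 gave 4 and 0 (3.88%).

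**Figure D5:**
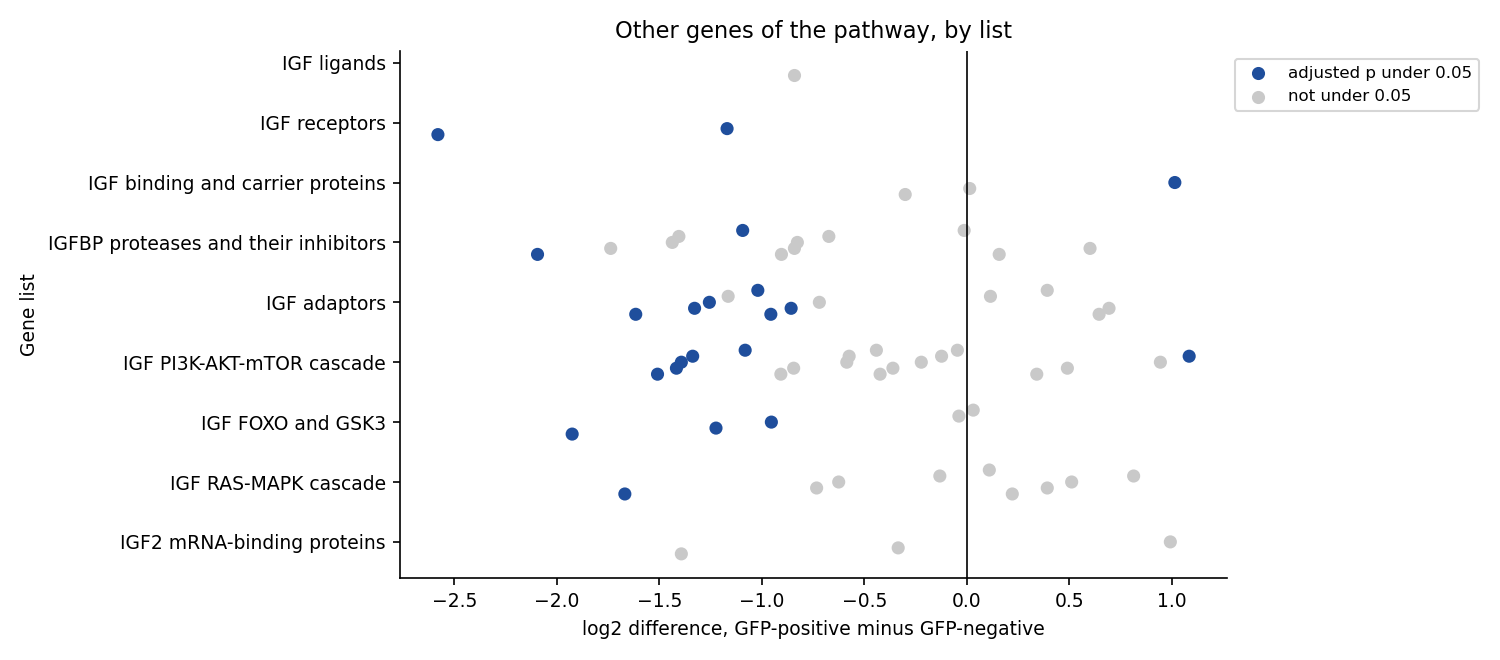
Log2 difference (GFP-positive minus GFP-negative) of each tested gene of the other pathway lists, 1 row per list, dark where the limma adjusted p was under 0.05. The 19 genes that fell belong to 6 of the lists, and the 2 that rose are Ccn3 and Mlst8.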

How the data were processed

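Total RNA from TRIzol, after DNase and removal of ribosomal RNA, went into stranded dUTP libraries, per the labels' protocols. Reads were handled with StringTie, HISAT2 and Trimmomatic on mm39, per the submitters' processing notes, and strand settings are not given in the sources used here. The authors' deposited tables give FPKM and mean per-base coverage for the same 153503 transcripts, per the file headers. Coverage divided by FPKM gave the aligned bases of a library. Read counts were not part of the values used, and intervals for counting error are not given.

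FPKM was summed over transcripts with the same gene name. Unnamed loci were features of their own, and 7902 unnamed isoforms at named loci (5.36% to 8.16% of FPKM) were left out. As an alternative, they were added where the locus had 1 gene name and the same strand. That still left out 1425 transcripts (1.63% to 6.34% of FPKM). For scaling, the median ratio to the geometric mean was taken over 12377 genes above 0 in every library whose mean FPKM reached 1. Genes under 0.5 mean scaled FPKM or with no transcript of 200 nt were left out. Values were tested as log2(scaled FPKM + 0.5), a scale that understates changes of low genes, with limma 3.58.1 in R 4.3.3 (eBayes with a mean-variance trend, Benjamini-Hochberg adjustment over all genes tested, threshold 0.05). Beyond the members, up to 3 called genes per pathway list by adjusted p were named, or else the one with the highest mean, with the 2 genes most like each member, overlapping and neighbouring genes, and the most abundant markers. One gene that this rule names is not reported here. The method was tested on simulated data, where it made few false calls, estimated the simulated differences closely in the median, and missed most of the changed genes. Few genes were changed there and noise was independent between genes, whereas 25.9% of genes passed in these data and differences followed transcript length. The simulated rates of false and missed calls therefore need not hold here. Members and lists were chosen with earlier results of these data known. Tables were read with Python 3.11.15 and pandas 2.3.3, and figures drawn with matplotlib 3.10.9.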

Additional observations from a re-analysis of the deposited data

How the results depend on the processing

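Each fit was repeated under 17 alternatives, 6 of which left out 1 library, and 1 added after the data were seen (library weights by a gene-by-gene method). Igf1, Igf1r, Insr, Igfbp2, Igfbp3, Igfbp5 and Igfbp6 kept the sign of their difference in all 18, though Igfbp6 was at 0.0028 scaled to an equal sum of FPKM. Igfbp4 (-0.14) ranged from -0.71 to 0.24 when 1 library was left out, above 0 without GFP-negative 11 (0.24) or GFP-positive 4 (0.13), and Igfbp7 was -0.25 scaled to an equal sum of FPKM. Insr passed in 15, Igfbp2 in 16, Igfbp5 in 12 and Igf1r in 11 of 18. The share of all genes called was 45.6% scaled to an equal sum, 3.22% unfiltered, 15.1% after removal of the length trend, and 73.4% and 55.1% with library weights and their gene-by-gene form, against 25.9%. The counts below are to be read against these shares and are no results about the members. Of the calls at an equal sum, 7.76% were higher. Against 1 member higher and 3 lower, an equal sum gave 0 and 5, no filter 1 and 1, removal of the length trend 1 and 0, and library weights 3 and 4 by either method. Against 2 pathway genes higher and 19 lower, an equal sum gave 0 and 47, no filter 0 and 7, removal of the length trend 3 and 6, library weights 15 and 37, and the gene-by-gene method 6 and 33. The estimation of library weights stopped before convergence. The cause of these changes was not tested. When 1 library was left out, the share of all genes called ranged from 3.07% (without GFP-negative M) to 37.1% (without GFP-negative 9). Against these shares, members called ranged from 0 to 2 higher and 0 to 3 lower, and pathway genes from 0 to 3 higher and 3 to 25 lower. In the same fits the difference in the log2 ratio of Igf1r to Insr ranged from 0.09 to 0.40. With unnamed isoforms added that difference was -0.021. No paired analysis was possible because the groups share no replicate numbers.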
